A study of Mus musculus with 8 samples.

Results

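ADAMTS proteases are secreted zinc metalloproteases whose tails carry thrombospondin repeats, and their 10 genes named here were followed through a hormone experiment in a mouse mammary cell line. The members are Adamts1, Adamts2, Adamts4, Adamts5, Adamts6, Adamts7, Adamts9, Adamts10, Adamts12 and Adamts15. Each gene was read by the probe set annotated with its symbol alone and, where several were, by the one chosen by its highest mean over all 8 arrays. That choice bears only on Adamts9, which had 6 such probe sets, since the other 8 measured members had 1 each. On this rule 9 of the 10 members were measured, among 19938 genes in all. Expression of Adamts2 was not analysed here, because no probe set carried its symbol alone in the annotation used.

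The cells are 3134, a line descended from C127 mouse mammary tumour cells, and all 4 groups carry integrated transgenes for A-fos and for the tetracycline regulator tTA. A-fos pairs with Jun proteins and so blocks the transcription factor AP-1, which Fos and Jun form, from reaching DNA. Its expression was under Tet-Off control. The groups, with 2 arrays each, are dexamethasone for 4 h with titles reading plus tetracycline, 0 h control with plus titles, dexamethasone for 4 h with titles reading no tetracycline, and 0 h control with no titles. Dexamethasone, which activates the glucocorticoid receptor, was used at 100 nM after 48 h in charcoal-treated serum. The study's question was how blocking AP-1 alters the response to the hormone. For all 8 samples the treatment text gives the opposite tetracycline state to the title and to the sample's Tet-Off characteristic. The arms are therefore called plus-titled and no-titled. The labels leave unsettled in which arm A-fos was made.

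Members of the family cut different parts of the extracellular matrix. ADAMTS1, ADAMTS4, ADAMTS5, ADAMTS9 and ADAMTS15 cleave the large proteoglycans aggrecan and versican, ADAMTS2 trims the amino ends of fibrillar procollagens, ADAMTS6 and ADAMTS10 are tied to fibrillin microfibrils, and ADAMTS7 and ADAMTS12 can cut cartilage oligomeric matrix protein. They are made as inactive precursors, trimmed by furin-like convertases, held in check by the inhibitor TIMP3 and, for some of them, taken up by the receptor LRP1. ADAMTS1 in mice is needed for normal ovulation and is also made by stromal cells of other tissues.

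The Adamts1 promoter is shown because Adamts1 was the 1 measured member with a called difference in any comparison. The line gives the 250 bases before its start in RefSeq (build GRCm38.p6, chr16:85803114-85803363, minus strand), 5′ to 3′, with a TATAAA element in capitals.
Adamts1 promoter: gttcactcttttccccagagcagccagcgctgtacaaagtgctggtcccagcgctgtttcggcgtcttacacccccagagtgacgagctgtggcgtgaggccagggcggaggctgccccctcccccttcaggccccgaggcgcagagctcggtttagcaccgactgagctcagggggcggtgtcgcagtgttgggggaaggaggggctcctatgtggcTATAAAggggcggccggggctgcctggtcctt

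The TATAAA match began at position -32 from the start, and these letters occurred in 13.6% of 32851 promoter windows in the RefSeq table (250 bases before the start and 50 from it, both strands). The TATA element was searched after the windows had been seen. Neither the AP-1 element TGANTCA, which 7.81% of all windows held, nor the short glucocorticoid element AGAACA, held by 19.0%, was found in this window on either strand. The full glucocorticoid palindrome, which holds AGAACA on each strand across a gap of N letters, was in 0.00913% of all windows and not in this one. Of the 10 members, 4 (Adamts1, Adamts2, Adamts9 and Adamts12) had a window in the table, and none of those 4 windows held the AP-1 or either glucocorticoid sequence. The search covers these letters in these windows only.

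Values below are RMA log2 expression, on which a difference of 1 is 2-fold, and a level of one gene cannot be set against that of another. Arrays of a pair correlated at r of 0.9932 to 0.9956 over the 19938 genes, and 4 to 24 genes differed by over 2-fold within a pair. Whether the 2 arrays of a group came from separate cultures is not given in the labels, and p-values therefore reflect only the spread between these arrays, which may be technical. In RNA from whole cultures, fewer cells making a transcript and less of it per cell cannot be told apart. The hormone's effect was visible in Fkbp5, a receptor co-chaperone gene, which rose by 3.32 in the plus-titled arm and by 3.05 in the no-titled arm. Means over all arrays ran between 4.394 (Epcam) and 5.858 (Krt8) for 6 luminal epithelial markers and between 5.819 (Thy1) and 12.82 (Vim) for 6 fibroblast markers. These are levels of different probe sets and were not compared, so the mammary origin of the cells is taken from the labels.

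Adamts1 fell after 4 h of dexamethasone in both arms and was higher in the plus-titled arm before hormone. It measured 9.07 and 8.90 with dexamethasone and 10.59 and 10.33 at 0 h in the plus-titled arm. In the no-titled arm it measured 8.94 and 8.90 with dexamethasone and 9.57 and 9.52 at 0 h. The dexamethasone arrays lay below the 0 h arrays in each arm, and the 4 dexamethasone arrays of both arms lay together between 8.90 and 9.07. The 0 h arrays were apart by arm, with both plus-titled arrays above both no-titled arrays. The order of group means was thus plus-titled 0 h, no-titled 0 h and then the 2 dexamethasone groups, which overlapped.

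**Figure D1:**
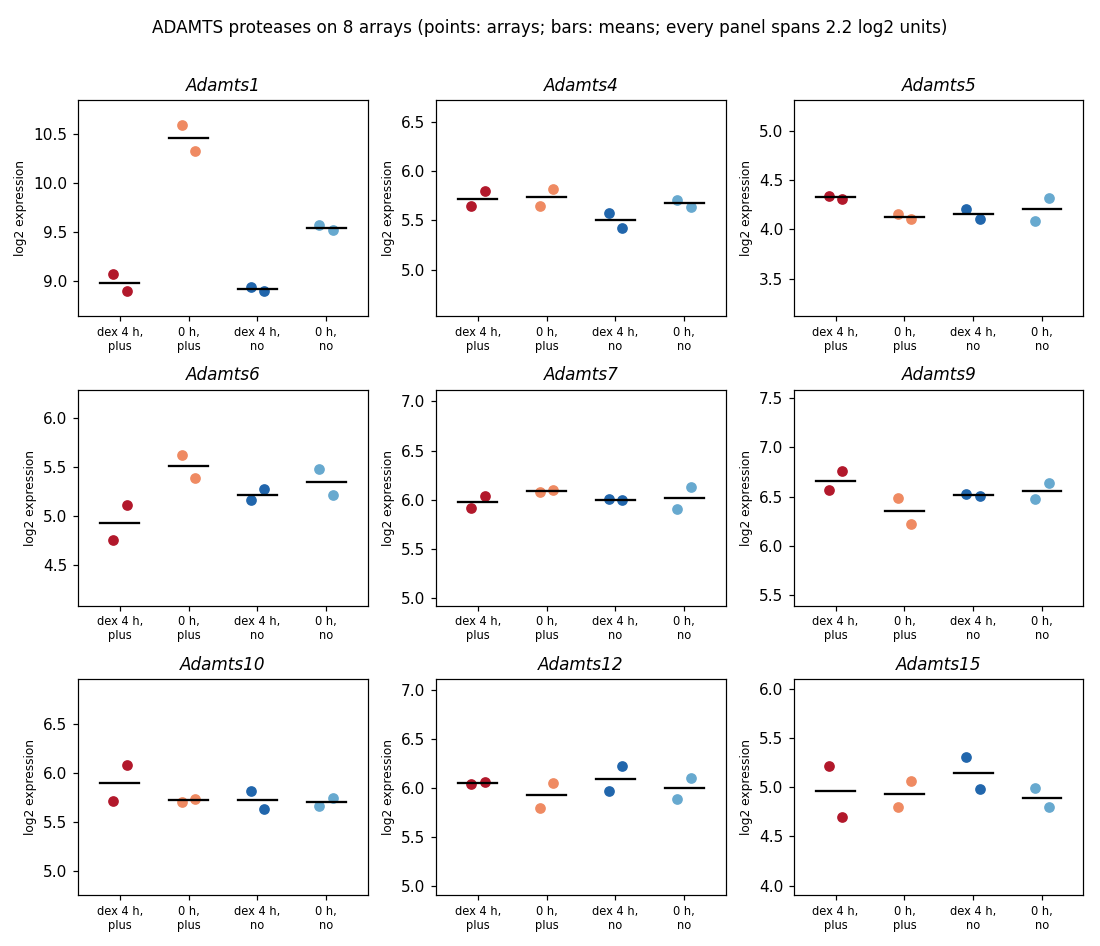
Log2 expression of the 9 measured ADAMTS proteases on each of the 8 arrays, 1 panel per gene. Points are arrays, bars are group means of 2 arrays, groups run along the horizontal axis, and every panel spans the same 2.2 log2 units. Adamts1 runs between 8.90 and 10.59, while the arrays of the other genes lie closer together.

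In the plus-titled arm Adamts1 averaged 8.99 ± 0.12 with dexamethasone and 10.46 ± 0.18 at 0 h (SD, n = 2 each). The difference was -1.47 ± 0.12 (SE, 95% interval -1.74 to -1.20), or 0.361 of the 0 h level, with a limma adjusted p = 0.000157. It was the 4th lowest difference of the 19938 genes in that arm. The call held in each of 8 fits that left out 1 array, with differences between -1.60 and -1.34.

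In the no-titled arm Adamts1 averaged 8.92 ± 0.03 with dexamethasone and 9.54 ± 0.04 at 0 h (SD, n = 2 each). The difference was -0.62 ± 0.12 (SE, 95% interval -0.89 to -0.35), or 0.650 of the 0 h level, with a limma adjusted p = 0.0322. This call was lost when any of the 4 arrays of the no-titled arm was left out (limma adjusted p between 0.164 and 0.25), with differences between -0.65 and -0.60, and it held when any array of the plus-titled arm was left out.

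Before hormone, the plus-titled minus no-titled difference of Adamts1 was 0.91 ± 0.12 (SE, 95% interval 0.64 to 1.18), or 1.88-fold higher, with a limma adjusted p = 0.00159. Leaving out each array in turn kept the call, with differences between 0.79 and 1.04. At 4 h the plus-titled minus no-titled difference was 0.06 ± 0.12 (95% interval -0.20 to 0.33), with a limma adjusted p = 0.833. The arms were not called different at 4 h, and the interval allows a difference of up to 0.33 between them.

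The hormone response of Adamts1 in the plus-titled arm minus that in the no-titled arm was -0.85 ± 0.17 (SE, 95% interval -1.23 to -0.47), the 29th lowest of all genes. It did not pass the test over all genes, with a limma adjusted p = 0.363 (0.000491 before adjustment over the genes). Only 1 gene of 19938 (0.00502%) was called in that comparison. The adjusted p for Adamts1 was between 0.331 and 0.975 with 1 array left out and between 0.0551 and 0.398 under the other settings tried. These comparisons share their arrays: the 0 h arm difference and both hormone responses use the same 0 h groups.

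**Figure D2:**
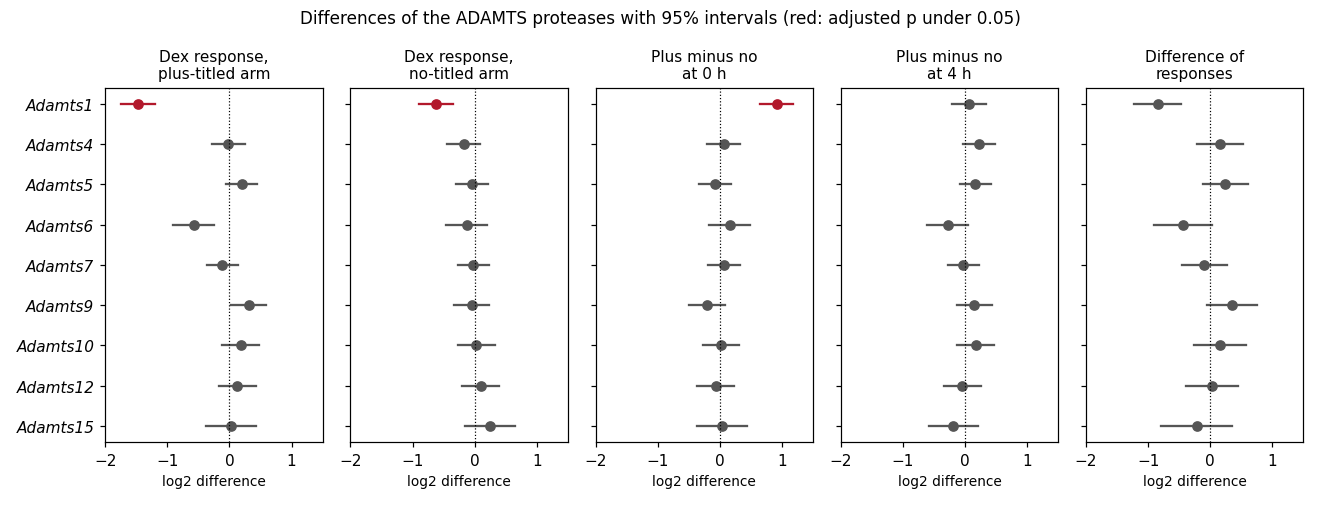
Log2 differences of the 9 measured ADAMTS proteases in the 5 comparisons, with 95% intervals from limma as horizontal lines. Red marks a limma adjusted p under 0.05. Adamts1 is red in both hormone responses (-1.47 and -0.62) and in the 0 h arm difference (0.91), and no other member is red.

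Across the family, Adamts1 was the 1 member of 9 called lower with dexamethasone in the plus-titled arm. There, 0.281% of all genes were called lower and 1.1% in either direction. Of the other 8 members, 3 had differences below 0 there that were not called. Adamts1 was also the 1 of 9 called lower in the no-titled arm, where 0.401% of all genes were called lower and 1.43% in either direction. Of the other 8 members, 5 had differences below 0 there that were not called. Adamts1 was the 1 of 9 called higher in the plus-titled arm at 0 h. There, 6.2% of all genes were called higher and 9.38% in either direction. At 4 h limma called 0 of 9 members between the arms, against 9.61% of all genes, and 0 of 9 had an unadjusted p under 0.05. For the difference of the responses limma called 0 of 9, and the 1 with an unadjusted p under 0.05 was Adamts1. Members were chosen with earlier results of these data known, so these counts do not test the family against all genes.

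The median difference over the 9 measured members was 0.03 in the plus-titled arm's hormone response, against -0.01 over all genes, and -0.04 in the no-titled arm's, against 0.01. For the arms it was 0.03 at 0 h, against -0.02 over all genes, and 0.06 at 4 h, against -0.01.

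Groups of 2 arrays that do not overlap were common among all genes, and the members are read against that. Dexamethasone and 0 h arrays were apart in 5 of 9 members in the plus-titled arm (36.1% of all genes) and in 2 of 9 in the no-titled arm (40.5%). The arms were apart in 1 of 9 members at 0 h (49.8% of all genes) and in 4 of 9 at 4 h (51.7%).

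Among the other aggrecan- and versican-cleaving members, none was called. Adamts9 measured 6.57 and 6.76 with dexamethasone and 6.49 and 6.22 at 0 h in the plus-titled arm, and 6.52 and 6.51 with dexamethasone and 6.48 and 6.64 at 0 h in the no-titled arm. Its dexamethasone arrays lay above the 0 h arrays in the plus-titled arm and within the range of the 0 h arrays in the no-titled arm. The plus-titled difference was 0.31 ± 0.13 (95% interval 0.03 to 0.59, limma adjusted p = 0.437). In that response the other probe sets of Adamts9 gave differences between -0.09 and 0.16. Over all comparisons its 6 probe sets gave differences between -0.48 and 0.38, with a smallest limma adjusted p of 0.176. Both extremes came from the probe set with the lowest mean, 3.48.

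Adamts4, an aggrecanase of cartilage, measured 5.64 and 5.80 with dexamethasone and 5.65 and 5.82 at 0 h in the plus-titled arm, and 5.58 and 5.42 with dexamethasone and 5.71 and 5.64 at 0 h in the no-titled arm. The no-titled dexamethasone arrays were the lowest of the 8. That response was -0.18 (95% interval -0.44 to 0.09, limma adjusted p = 0.795), and the 4 h arm difference was 0.22 (95% interval -0.04 to 0.48, limma adjusted p = 0.315).

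Adamts5, the other main cartilage aggrecanase in mice, is the chromosomal neighbour of Adamts1 in the RefSeq gene order. It measured 4.34 and 4.31 with dexamethasone and 4.16 and 4.10 at 0 h in the plus-titled arm, and 4.21 and 4.11 with dexamethasone and 4.09 and 4.32 at 0 h in the no-titled arm. The plus-titled arrays were apart by hormone, with dexamethasone higher, while the no-titled arrays overlapped. The plus-titled response was 0.20 (95% interval -0.06 to 0.45, limma adjusted p = 0.644), and its mean over all arrays was among the lowest 25% of genes. Neither Adamts5 nor Cyyr1, the neighbour of Adamts1 on its other side, was called in any of the 5 comparisons (limma adjusted p between 0.357 and 0.997).

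Adamts15 was the most scattered member, with a mean SD within groups of 0.23. It measured 5.22 and 4.70 with dexamethasone and 4.80 and 5.06 at 0 h in the plus-titled arm, and 5.31 and 4.99 with dexamethasone and 4.99 and 4.80 at 0 h in the no-titled arm. The groups overlapped in each of the 4 comparisons. Its hormone responses were 0.03 in the plus-titled arm, a value that changed sign with cyclic loess or median centring, and 0.25 in the no-titled arm.

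Of the microfibril-linked members, Adamts6 showed the second widest span of group means, 0.57, after 1.54 for Adamts1. It measured 4.75 and 5.11 with dexamethasone and 5.62 and 5.39 at 0 h in the plus-titled arm, and 5.16 and 5.27 with dexamethasone and 5.47 and 5.21 at 0 h in the no-titled arm. The plus-titled dexamethasone arrays were the lowest of the 8 and the plus-titled 0 h arrays included the highest, while the no-titled groups overlapped. The plus-titled response was -0.57 ± 0.15 (SE, 95% interval -0.90 to -0.24), which did not pass (limma adjusted p = 0.142, and 0.00297 before adjustment over the genes). It ranged between -0.75 and -0.39 with 1 array left out. The no-titled response was -0.13, and the difference of the responses, -0.44, did not pass either (95% interval -0.91 to 0.02, limma adjusted p = 0.973).

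Adamts10, whose human gene is mutated in a short-stature disorder with eye lens defects, measured 5.72 and 6.08 with dexamethasone and 5.71 and 5.73 at 0 h in the plus-titled arm. In the no-titled arm it measured 5.82 and 5.63 with dexamethasone and 5.66 and 5.74 at 0 h. A single dexamethasone array of the plus-titled arm, at 6.08, stood above the other 7, and the groups overlapped in every comparison.

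The members that can cut cartilage oligomeric matrix protein had the smallest spans of group means. Adamts7 measured 5.91 and 6.04 with dexamethasone and 6.08 and 6.10 at 0 h in the plus-titled arm, and 6.01 and 5.99 with dexamethasone and 5.91 and 6.13 at 0 h in the no-titled arm. Adamts12 measured 6.05 and 6.06 with dexamethasone and 5.80 and 6.06 at 0 h in the plus-titled arm, and 5.97 and 6.22 with dexamethasone and 5.90 and 6.10 at 0 h in the no-titled arm. Group means of Adamts7 spanned 0.11, with a mean SD within groups of 0.07, and those of Adamts12 spanned 0.17, with a mean SD of 0.13. Neither was called in any comparison.

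The ranges of the 8 measured members other than Adamts1 are given together. Their hormone responses in the plus-titled arm ran between -0.57 and 0.31, with 95% intervals inside -0.90 and 0.59. In the no-titled arm they ran between -0.18 and 0.25, with intervals inside -0.46 and 0.65. The arm differences ran between -0.21 and 0.16 at 0 h and between -0.28 and 0.22 at 4 h, with intervals inside -0.49 and 0.49 and inside -0.61 and 0.48. Changes of 2-fold in these RMA values thus lay outside the intervals of each of these 8 genes in these 4 comparisons. Smaller changes could not be settled with 2 arrays a group. Differences of dim genes are compressed in such values, and the spread within a pair may be technical. The intervals therefore do not bound changes in the amount of transcript.

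The profile of Adamts1 over the 8 arrays was most like those of Hs6st1, a heparan sulfate sulfotransferase gene, Hes1, a transcriptional repressor of the Notch pathway, and Nt5dc3. Their Pearson correlations with Adamts1 were 0.9905, 0.9836 and 0.964 (n = 8 arrays), the highest of 3161 genes whose group means spanned at least 0.5. Because the arrays fall into 4 groups, such a correlation mainly describes a shared order of group means, and these genes were picked for it. Hes1 measured 5.42 and 5.37 with dexamethasone and 6.79 and 6.34 at 0 h in the plus-titled arm, and 5.21 and 5.44 with dexamethasone and 5.86 and 5.78 at 0 h in the no-titled arm. Hs6st1 measured 7.86 and 7.68 with dexamethasone and 8.78 and 8.66 at 0 h in the plus-titled arm, and 7.74 and 7.73 with dexamethasone and 8.29 and 8.07 at 0 h in the no-titled arm. In both, as in Adamts1, the plus-titled 0 h arrays were highest and the dexamethasone arrays of both arms lay together at the bottom.

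**Figure D3:**
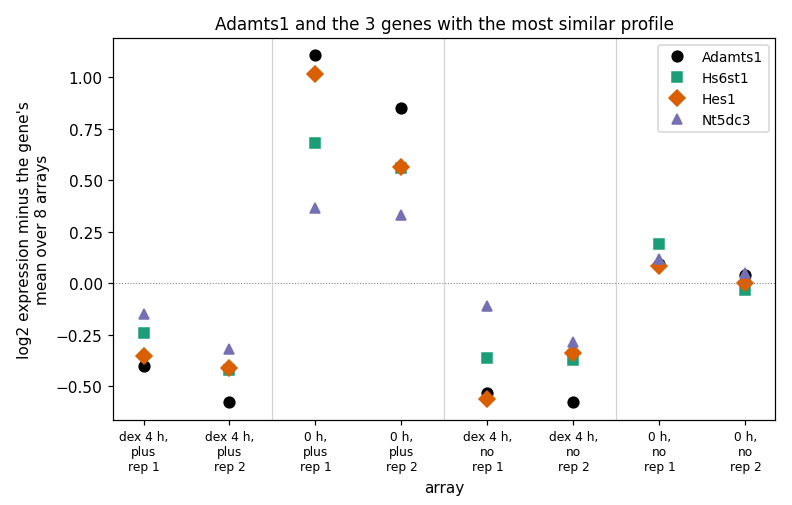
Log2 expression minus each gene's mean over 8 arrays, for Adamts1 and the 3 genes with the highest Pearson correlation to it (Hs6st1, Hes1 and Nt5dc3), array by array. Each point is 1 array. All 4 genes are highest in the plus-titled 0 h arrays and lowest in the dexamethasone arrays, as the choice by correlation (0.964 to 0.9905) implies.

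For the members with the next widest spans, the closest profiles were less alike. Adamts6 correlated at 0.9644 with Gsap, at 0.9264 with Frg2f1 and at 0.9059 with Nrg1, which encodes the growth factor neuregulin. Adamts9 correlated at 0.8844 with Ppp1r9a, at 0.8563 with Psg23 and at 0.8381 with B330016D10Rik (n = 8 arrays each). For both, the spans of group means were 0.57 and 0.31, small enough that single arrays weigh in these values.

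The other genes of the wider family are given for comparison. Of 9 further ADAMTS proteases, all measured, limma called 0 in each of the 5 comparisons, with 0 to 2 at an unadjusted p under 0.05. Their median was 0.10 in the plus-titled hormone response, against -0.01 over all genes, and -0.11 between the arms at 0 h, against -0.02. Adamts13, which cuts von Willebrand factor, differed by -0.45 in the plus-titled hormone response (limma adjusted p = 0.0874). With the dimmest 25% of genes left out, it was called lower there (limma adjusted p = 0.0470), the 1 call among these 9 genes in that response. Adamts14, a procollagen amino-propeptidase like Adamts2, differed by 0.31 in the no-titled response (limma adjusted p = 0.350). Of 7 ADAMTS-like genes, which encode relatives without the protease domain, limma also called 0 in each comparison, with 0 to 2 at an unadjusted p under 0.05.

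Substrate genes of the family are given by group. Among all genes, 9.38% were called between the arms at 0 h and 9.61% at 4 h. In the hormone responses 1.1% were called in the plus-titled arm and 1.43% in the no-titled arm. Counts in the short lists that follow were not tested against these shares. Of 12 hyalectan and hyaluronan genes, 0 were called in either hormone response (0 at an unadjusted p under 0.05 in the plus-titled arm and 3 in the no-titled arm), and 2 were lower in the plus-titled arm at 0 h. Vcan, which encodes versican, the shared substrate of the proteoglycan-cleaving members, measured 5.26 and 5.18 with dexamethasone and 5.29 and 5.27 at 0 h in the plus-titled arm. In the no-titled arm it measured 6.40 and 6.16 with dexamethasone and 5.99 and 5.96 at 0 h. All plus-titled arrays lay below all no-titled arrays, with differences of -1.06 at 4 h (limma adjusted p = 0.000495) and -0.70 at 0 h (limma adjusted p = 0.00450).

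Has2, a hyaluronan synthase gene, was lower in the plus-titled arm at 0 h (difference -0.66, limma adjusted p = 0.0158). That call was lost without either 0 h array of the no-titled arm and without the second 0 h array of the plus-titled arm, with adjusted p up to 0.110. At 4 h Vcan was the 1 called gene of these 12. The median 0 h arm difference was -0.06 over these genes, -0.20 over the procollagens, -0.21 over the microfibril genes, 0.05 over the other substrates, 0.11 over the inhibitors and clearance genes and 0.22 over the processing genes described next, against -0.02 over all genes.

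Of 7 fibrillar procollagen genes, the substrates of the family's procollagen trimmers, 1 was called between the arms and 0 in either hormone response, where 0 also had an unadjusted p under 0.05. Col1a2, a chain of type I collagen, was lower in the plus-titled arm, with differences of -0.65 at 4 h and -0.70 at 0 h. Of 8 measured microfibril genes, 1 was likewise called between the arms and 0 in either hormone response, again with 0 at an unadjusted p under 0.05. Ltbp1, which encodes a TGF-beta binding protein of the microfibrils, measured 8.63 and 8.64 with dexamethasone and 8.46 and 8.57 at 0 h in the plus-titled arm, against 10.03 and 9.96 with dexamethasone and 9.96 and 9.76 at 0 h in the no-titled arm. Its arm differences were -1.36 at 4 h and -1.34 at 0 h (limma adjusted p = 0.000120 and 0.000146).

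Among 13 other substrates, Thbs1 and Sdc4 were called in both hormone responses. Thbs1, whose product thrombospondin ADAMTS1 can cut, measured 10.42 and 9.92 with dexamethasone and 11.81 and 11.65 at 0 h in the plus-titled arm, and 9.23 and 9.08 with dexamethasone and 10.51 and 10.49 at 0 h in the no-titled arm. Like Adamts1 it fell in both arms, by 1.56 in the plus-titled arm and by 1.34 in the no-titled arm, and was higher in the plus-titled arm at 0 h, by 1.23. At 4 h it was also higher in that arm, by 1.01 (limma adjusted p = 0.00289), where Adamts1 was not called. Whether these 2 genes differ in this was not tested.

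Sdc4, which encodes the cell surface proteoglycan syndecan-4, rose by 0.76 in the plus-titled arm and by 0.82 in the no-titled arm (limma adjusted p = 0.0310 and 0.0164). The no-titled call was lost when any array of that arm was left out (adjusted p up to 0.166). The plus-titled call was lost without either dexamethasone array or the first 0 h array of that arm, and without either 0 h array of the no-titled arm (adjusted p up to 0.257). Fbln2, which encodes the basement membrane protein fibulin-2, was lower in the plus-titled arm, with differences of -0.72 at 4 h and -0.66 at 0 h. Its 4 h call was lost without the first dexamethasone array of the no-titled arm or the second of the plus-titled arm, and its 0 h call without the first 0 h array of the no-titled arm (adjusted p up to 0.0846).

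Of 6 genes for inhibitors and clearance of these proteases, 0 were called in either hormone response (0 at an unadjusted p under 0.05 in the plus-titled arm and 1 in the no-titled arm), and 3 were called between the arms at each time. Timp1 measured 8.22 and 8.40 with dexamethasone and 8.44 and 8.11 at 0 h in the plus-titled arm, and 9.23 and 9.46 with dexamethasone and 9.36 and 9.61 at 0 h in the no-titled arm. All plus-titled arrays lay below all no-titled arrays, with differences of -1.04 at 4 h and -1.21 at 0 h. Timp3, the main inhibitor of the family, differed by 0.50 in the no-titled hormone response (limma adjusted p = 0.195).

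Timp2 was higher in the plus-titled arm by 0.44 at 4 h and by 0.64 at 0 h, and Lrp1, the clearance receptor, by 0.52 and 0.55. The 4 h call of Timp2 was lost when any 4 h array or either 0 h array of the no-titled arm was left out (adjusted p up to 0.151). The 4 h call of Lrp1 was lost when any 4 h array was left out, and its 0 h call without the second 0 h array of either arm (adjusted p up to 0.139). Of 7 genes for processing and modification, among them Furin, limma called 0 in each comparison, with 0 to 3 at an unadjusted p under 0.05. Furin differed by 0.35 and 0.39 in the hormone responses of the plus-titled and no-titled arms (limma adjusted p = 0.403 and 0.354).

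**Figure D4:**
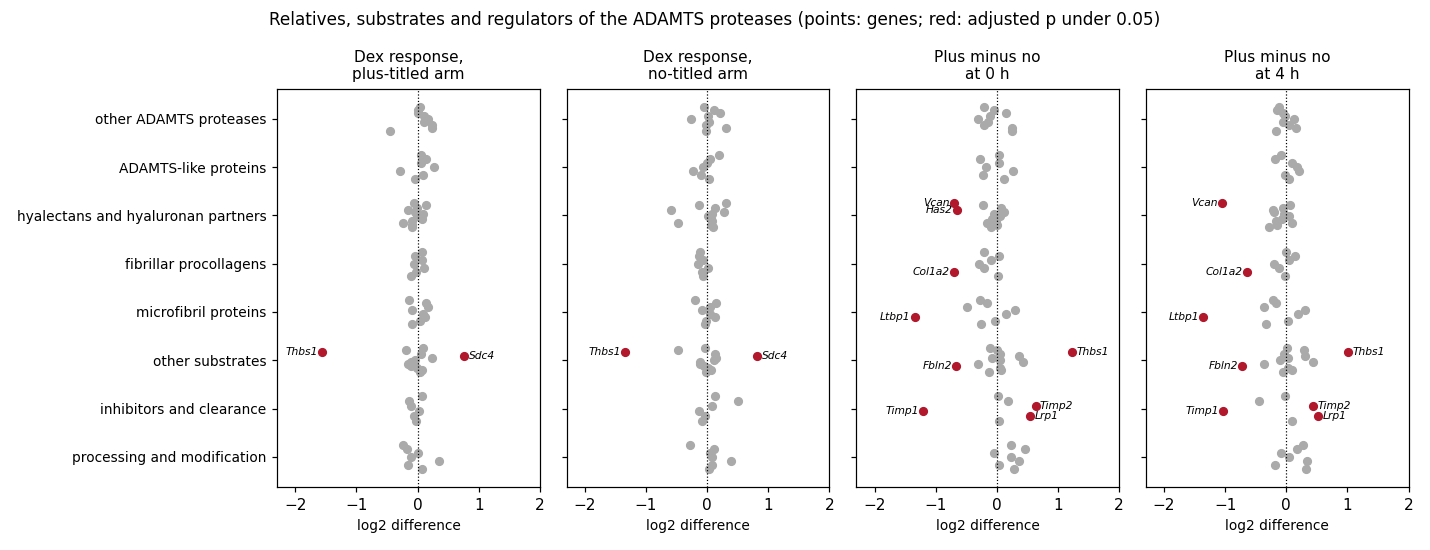
Log2 differences of genes in 8 lists of ADAMTS relatives, substrates and regulators, in both hormone responses and both arm differences. Each point is 1 gene, and named red points have a limma adjusted p under 0.05. Thbs1 (-1.56 and -1.34) and Sdc4 (0.76 and 0.82) are the red points in the hormone responses, and Ltbp1, Timp1 and Vcan lie on the low side of both arm differences.

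Single markers of several cell types were also called between the arms, where 9.38% of all genes were called at 0 h and 9.61% at 4 h. Counts in lists this short were not tested against those shares. Of 5 measured leukocyte markers, 1 was called, Lyz2, a lysozyme gene, which was higher in the plus-titled arm by 2.44 at 0 h and 2.75 at 4 h. The summed log2 level of these 5 markers at 0 h was 26.35 to 26.67 in the plus-titled arm and 24.28 to 24.93 in the no-titled arm. Without Lyz2, the sum of the other 4 was 18.27 to 18.51 in the plus-titled arm and 18.77 to 19.09 in the no-titled arm, and each of the 4 had a difference below 0 that was not called. The leukocyte marker Ptprc averaged 3.953, among the lowest 25% of genes.

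Of 6 fibroblast markers, 2 were higher and 1 lower in the plus-titled arm at 0 h, and their summed level was 54.95 to 55.05 in the plus-titled arm and 55.27 to 55.57 in the no-titled arm. Pdgfra, a growth factor receptor gene, was higher by 0.88 at 0 h, and S100a4 was lower (difference -1.05). Pdgfrb, a related receptor gene, measured 8.98 and 8.70 with dexamethasone and 9.53 and 9.64 at 0 h in the plus-titled arm, and 8.62 and 8.46 with dexamethasone and 9.12 and 9.0 at 0 h in the no-titled arm. Its dexamethasone arrays lay below the 0 h arrays in each arm, and its plus-titled 0 h arrays were the highest of the 8. Pdgfrb fell by 0.75 with dexamethasone in the plus-titled arm (limma adjusted p = 0.0191), where Adamts1 fell by 1.47. At 0 h Pdgfrb was higher in that arm by 0.52 (limma adjusted p = 0.0298), and Adamts1 by 0.91. Pdgfrb was the 1 of 6 fibroblast markers called in the plus-titled hormone response, where 1.1% of all genes were called. The list did not follow it. The median over the 6 markers was 0.01 in that response, against -0.01 over all genes. Between the arms at 0 h it was -0.17, against -0.02.

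The hormone response of Pdgfrb in the no-titled arm was -0.52 (limma adjusted p = 0.0992). Its plus-titled hormone call was lost without either 0 h array or the second dexamethasone array of that arm (adjusted p up to 0.201). Its 0 h arm call was lost when any of the 4 arrays at 0 h was left out (adjusted p up to 0.182).

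Of 6 luminal epithelial markers, Krt7 was the 1 called, higher in the plus-titled arm by 0.65 at 0 h and 0.71 at 4 h. Its 0 h call was lost without the second 0 h array of the no-titled arm (adjusted p = 0.0763). The list as a whole went the other way, with median arm differences of -0.12 at 0 h and -0.18 at 4 h. The 0 h sum of the 6 was 30.59 to 30.71 in the plus-titled arm and 30.78 to 31.11 in the no-titled arm. Of 5 basal epithelial markers, Krt14 was the 1 called, lower in the plus-titled arm at 0 h (difference -1.39). The 0 h sum of the 5, which includes Krt14, was 24.05 to 24.81 in the plus-titled arm and 25.82 to 26.98 in the no-titled arm. The median arm difference of the 5 was -0.31 at 0 h, against -0.02 over all genes, and -0.08 at 4 h, against -0.01. The part of these marker differences in the Adamts1 values was not tested.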

How the data were processed

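RNA was measured on Affymetrix arrays in 8 samples. Per the submitters' processing notes, the authors used Affymetrix Expression Console and RMA, and the deposited table holds log2 expression per probe set. Versions of both were not given in the sources used here. Because RMA aligns the distributions of the arrays, these values cannot show a shift common to most genes, and differences of dim genes are compressed. Array medians ran between 5.36 and 5.47. No read depth applies, and the number of arrays limits the precision.

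Of 28888 probe sets, 21789 had 1 gene symbol (21698 matched to RefSeq by gene number), 1621 had several and 5478 were unnamed here. Per gene, the probe set with the highest mean over all arrays was kept, for 19938 genes. Of these, 999 had several probe sets.

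Limma 3.58.1 in R 4.3.3 (lmFit, eBayes) was run on all 8 arrays with a term for each group. Tests were 2-sided, p-values were adjusted by Benjamini-Hochberg over the whole gene table, and genes under 0.05 were called. There were 4 residual degrees of freedom and 6.64 from the prior. The procedure was also run on simulated independent values with variances drawn from limma's own fitted prior. These values hold no shared cultures or technical pairs, so the run cannot show how calls behave where arrays share them. Intervals cover 95%. Members and gene lists were chosen with earlier results of these data known. Named genes were all members, up to 4 called genes of each list (or the smallest p), and the 3 genes most correlated with each of the 3 members of widest span. Replicate numbers were not treated as pairs, because the labels do not say that a number marks a shared culture or day. Same-numbered arrays had correlations of their deviations between -0.0191 and 0.133 over pairs of groups, which does not settle whether they are pairs. The fits were repeated with trended and robust variances, on the compared groups alone, with a replicate block, without dim genes, after cyclic loess or median centring, with the mean or the most variable probe set per gene, and without each array.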

Additional observations from a re-analysis of the deposited data

How the results depend on the processing

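The calls of Adamts1 (lower with dexamethasone in each arm, higher in the plus-titled arm at 0 h) were also made under each of the 8 alternatives other than leaving out an array, and no other member was called under them. With the replicate block, the adjusted p of Adamts1 was 0.000399 in the plus-titled response, 0.0258 in the no-titled response and 0.0023 at 0 h, and the block changed no call of a member. Leaving out 1 array gave 80 to 187 genes called in the plus-titled response, 134 to 291 in the no-titled response, 589 to 1642 at 0 h, 654 to 2128 at 4 h and 0 to 2 for the difference of the responses, with 0 to 1 member called in the no-titled response. A trended and robust variance model gave 370 genes in the plus-titled response, 461 in the no-titled response and 11 for the difference of the responses, and median centring gave 2 for the last. At 0 h, 1236 genes were higher and 634 lower in the plus-titled arm, and 1575 and 425 with median centring. Several list counts also moved by 1 or 2 genes: Cd44 was called in the no-titled response (-0.49) with the trended and robust variance model or without dim genes, Pcsk7 was called at 0 h with either of these or the block (0.46) or median centring (0.51), and Adamts13 was called in the plus-titled response (-0.45, adjusted p = 0.0470) without dim genes. With only the arrays compared, Sdc4 was not called in the plus-titled response (0.76, adjusted p = 0.0703). Differences near 0 of members that were not called changed sign. Cyclic loess gave -0.00433 and median centring -0.00894 for Adamts15 in the plus-titled response, and median centring gave -0.00412 for Adamts12 in the difference of the responses. Adamts9 at 4 h was -0.0243 over the mean of its probe sets and -0.0998 with its most variable probe set. The filter on dim genes left out Adamts5. The cause of these moves was not tested.

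With 1 array left out, signs also changed in these ranges. In the plus-titled response they were -0.103 to 0.0721 for Adamts4, -0.00149 to 0.359 for Adamts10, -0.00398 to 0.252 for Adamts12 and -0.231 to 0.293 for Adamts15. In the no-titled response they were -0.161 to 0.0724 for Adamts5, -0.260 to 0.00259 for Adamts6, -0.132 to 0.0909 for Adamts7, -0.128 to 0.0359 for Adamts9, -0.0675 to 0.114 for Adamts10 and -0.0271 to 0.223 for Adamts12. At 0 h they were -0.0270 to 0.148 for Adamts4, -0.190 to 0.0433 for Adamts5, -0.0437 to 0.179 for Adamts7, -0.0207 to 0.0562 for Adamts10, -0.198 to 0.0582 for Adamts12 and -0.0975 to 0.166 for Adamts15. At 4 h they were -0.0235 to 0.151 for Adamts1, -0.0902 to 0.0374 for Adamts7, -0.00678 to 0.354 for Adamts10, -0.169 to 0.0813 for Adamts12 and -0.449 to 0.0743 for Adamts15. For the difference of the responses they were -0.205 to 0.0173 for Adamts7, -0.0245 to 0.336 for Adamts10, -0.102 to 0.154 for Adamts12 and -0.483 to 0.0399 for Adamts15. With 2 arrays a group, differences of this size cannot be told from the spread between arrays.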
